A study of Mus musculus with 45 samples.

Results

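Sox genes encode transcription factors that bind DNA through a high-mobility-group box. The 10 members described here are Sox4 and Sox11 (SoxC group), Sox3 (SoxB1), Sox7, Sox17 and Sox18 (SoxF), Sox9 and Sox10 (SoxE), and Sox5 and Sox6 (SoxD). They were taken by symbol from a gene table of 23284 symbols that lists 19 Sox genes in all. Their transcripts were counted in 6 poly(A)-selected RNA-seq libraries of mouse heart: adult heart (2 libraries, called adult 1 and adult 2), embryonic heart (E12.5, the embryonic day), an E12.5 heart labelled Gata4 KO (called the KO-labelled library), a heart labelled banding and a heart labelled sham. Banding narrows a great vessel and so loads the heart, and sham is its operated control, but the labels do not name the vessel, the time after the operation or the age beyond "adult". The alleles Gata4fbio, Rosa26BirA, cTNTcre and Gata4flox are named for the series as a whole, and the labels do not say which of them each RNA library carried. A cTNTcre allele acts in cardiomyocytes, so in such hearts the other cell types would keep Gata4. The RNA was pooled, and nothing says how many animals each pool held.

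The groups of the Sox family differ in the similarity of their DNA-binding box and in their partners. SoxC factors act in progenitors and in the growth of the outflow tract, SoxF factors act in endothelial cells, where they shape arterial, venous and lymphatic fate, and Sox9 acts in the cushion mesenchyme that forms the valves. Sox10 marks neural crest cells and their glia, Sox5 and Sox6 are partners of Sox9 in cartilage and regulators of muscle fibre and globin genes, and Sox3 is known best from neural progenitors.

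Levels are log2(FPKM + 1) as deposited, where FPKM is fragments per kilobase of transcript scaled to all mapped reads, and levels of different genes are compared in FPKM because it is per length. The libraries held 12086929 to 21056784 mapped reads, of which 75.9% to 83.9% lay on listed genes in adult and both E12.5 libraries, but only 58.0% in banding and 55.6% in sham. As deposited, the median difference of all genes was 0.44 for adult minus sham and -1.28 for sham minus E12.5. Comparisons of sham with adult or E12.5 move with the scaling. The part of the share on listed genes in this was not tested. Gata4 stood at 5.93 in E12.5 and 6.13 in the KO-labelled library, a ratio of FPKM of 1.15 (95% interval 1.10 to 1.20), so its transcript was not lower where the label says KO. The region removed by a floxed allele was not measured apart. All 8 cardiomyocyte markers reached 1 FPKM in all 6 libraries, and none of 4 lung markers did in any. Red cell genes summed to 21307 FPKM in E12.5 and 64780.5 in the KO-labelled library, against 0.607 to 7.63 FPKM in the 4 postnatal libraries.

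All 10 members were listed, and 9 had reads in every library. In at least 1 library, 9 reached 1 FPKM (all but Sox10) and 5 reached 5 FPKM (Sox4, Sox11, Sox3, Sox7 and Sox18). Sox4, Sox11, Sox3 and Sox18 stood higher in both E12.5 libraries than in all 4 postnatal libraries, and Sox17 stood lower. Over all 13383 genes with at least 1 FPKM in any library, 53.0% lay above in this way and 17.4% below. As deposited, 4 of 9 and 1 of 9 are thus close to the background. This order held for those 5 genes under 3 other scalings. Of all genes, 33.7% to 39.4% then lay above and 28.2% to 33.2% below. Sox7, Sox9, Sox5 and Sox6 overlapped between embryonic and postnatal libraries. In whole tissue, fewer cells of a type and less RNA per cell cannot be told apart.

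**Figure D1:**
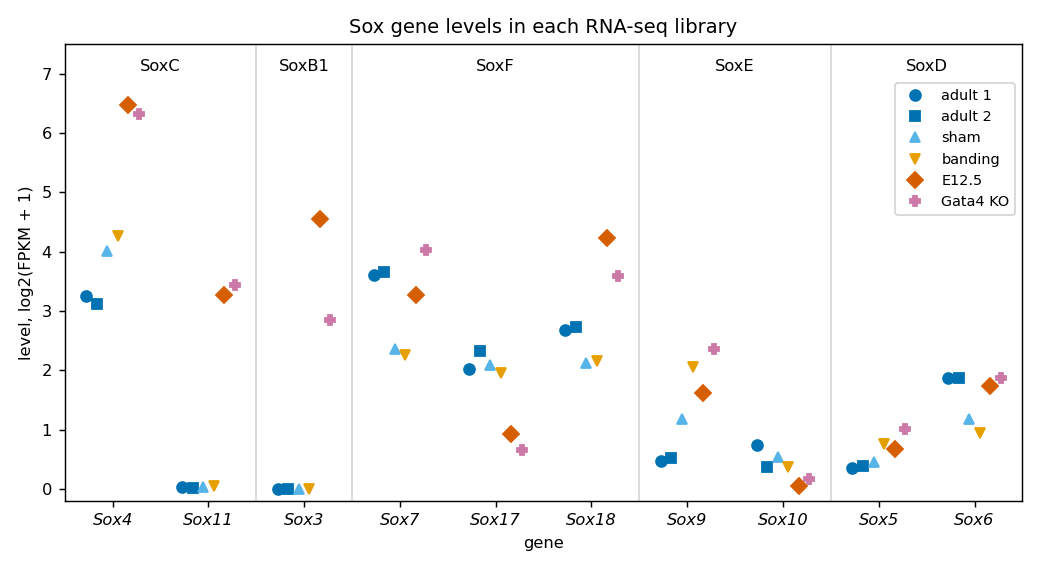
Level of each Sox gene, log2(FPKM + 1), in each library, with genes on the x axis ordered by group. Each symbol is 1 library. The E12.5 symbols of Sox4 stand at 6.47 and 6.32, above 4.27 in banding, and those of Sox17 at 0.92 and 0.65, below 1.95 in banding.

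The adult heart was compared with E12.5 heart by limma, with a Benjamini-Hochberg threshold of 0.05. Of 12658 genes tested, 23.4% were called higher in adult and 48.4% lower. Among the 8 members that passed the filter of 1 FPKM in 1 of the 3 libraries, Sox17 rose, Sox4, Sox11, Sox3, Sox18 and Sox9 fell, and Sox7 and Sox6 were not called. Of these libraries, Sox11, Sox3 and Sox9 reached 1 FPKM only in E12.5, and Sox17 only in adult. The filter thus set the direction that a call of these genes could take. The share called, 6 of 8, is near the 71.8% of all genes called in either direction. As deposited, the median difference of these members was -1.33, and that of all genes was -0.51. The median of the members was not taken under other scalings. The median of all genes moved to -0.05 with median-of-ratios scaling and to 0.02 with upper-quartile scaling, and the split of all calls moved from 2965 higher and 6123 lower to 4131 and 4409 or 4316 and 4159. The spread in this test comes from the adult pair alone, in part through a trend over all genes. The E12.5 library is assumed to vary like that pair, and nothing says that the pair came from separate animals.

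**Figure D2:**
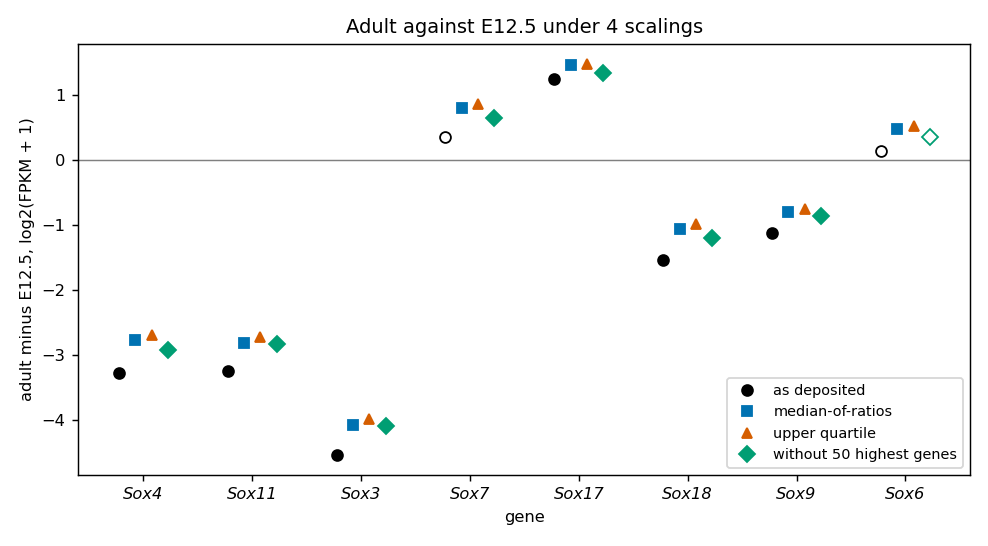
Difference between adult and E12.5 on the log2(FPKM + 1) scale for the 8 members tested, under the deposited scaling and 3 others. Filled symbols passed an adjusted p of 0.05 by limma and open symbols did not. Sox4, Sox11, Sox3, Sox18 and Sox9 lie below 0 and Sox17 above it in all 4 scalings, while Sox7 is open only as deposited.

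Sox4 was the most abundant member in 4 of the 6 libraries. It stood at 3.25 in adult 1, 3.12 in adult 2, 6.47 in E12.5, 6.32 in the KO-labelled library, 4.27 in banding and 4.0 in sham. As deposited, both E12.5 libraries lay more than 2 units above the highest postnatal library, which was banding. Under 3 other scalings the gap was smaller, with the KO-labelled library at 5.75 to 5.95 and banding at 4.72 to 4.83. Banding and sham lay above both adult libraries. In FPKM the deposited levels were 87.3 in E12.5 and 8.53 and 7.70 in adult. The adult mean of 3.19 ± 0.09 (SD, n = 2) was lower than E12.5 by limma, with a difference of -3.28 (SE 0.11) and an adjusted p of 0.00398. Among genes with at least 1 FPKM, Sox4 stood at the 95th percentile in E12.5 at the 58th and 55th in adult, at the 85th in banding and at the 83rd in sham.

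Sox11, the closest relative of Sox4 in this set, stood at 3.28 in E12.5 and 3.44 in the KO-labelled library. It stood at 0.03 in adult 1, 0.01 in adult 2, 0.05 in banding and 0.03 in sham. The embryonic libraries held 1545 and 1479 Sox11 reads and the postnatal ones 1 to 4, so Sox11 was close to undetected after birth. The fall from E12.5 to adult was -3.26 (SE 0.07, adjusted p = 0.00398, limma). With 2 reads in sham, the ratio of its FPKM to that in E12.5 was 0.00226 (95% interval 0.000273 to 0.00816). Sox4 took 91.0% of the summed FPKM of Sox4 and Sox11 in E12.5 and 99.8% in adult 1. Sox12, the remaining SoxC gene and not a member, stood at 5.10 in E12.5 and at 2.48 and 2.42 in adult, a fall of -2.65 (SE 0.10, adjusted p = 0.00406, limma).

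The promoters of Sox4 and Sox11 are shown because both genes stood higher in both embryonic libraries than in all postnatal ones and the study is about a GATA factor. RefSeq (GRCm38.p6) gave promoter entries for 4 of the 10 members. The 250 bases before the start are printed 5′ to 3′ on the minus strand, from chr13:28953700-28953949 for Sox4 and chr12:27342719-27342968 for Sox11. Capitals mark 2 motifs searched on both strands. They are a GATA core, spelled GATAA, and the CCAAT box.
Sox4: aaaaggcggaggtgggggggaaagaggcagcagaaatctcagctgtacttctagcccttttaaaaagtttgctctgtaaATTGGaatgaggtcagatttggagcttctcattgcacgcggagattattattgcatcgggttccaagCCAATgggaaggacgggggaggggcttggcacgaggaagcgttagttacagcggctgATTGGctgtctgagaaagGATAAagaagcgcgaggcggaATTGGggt
Sox11: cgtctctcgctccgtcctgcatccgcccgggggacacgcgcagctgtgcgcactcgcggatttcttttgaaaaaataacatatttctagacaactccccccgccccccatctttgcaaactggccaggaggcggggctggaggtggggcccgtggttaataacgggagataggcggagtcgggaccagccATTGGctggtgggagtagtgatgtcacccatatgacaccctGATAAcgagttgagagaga
Each window held 1 GATAA, which began 29 bases before the start in Sox4 and 19 in Sox11, and 22.6% of 32851 promoter windows of this length held GATAA or TTATC. The CCAAT box occurred 4 times in Sox4 and once in Sox11, and 33.8% of all windows held at least 1. The motifs do not overlap each other. The Sox core ACAAT or ATTGT, held by 27.7% of windows, is absent from both. GC content was 50.8% in Sox4 and 58.0% in Sox11, against a median of 52.4%. Such matches are letters in a window and were not tested as binding sites.

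Sox3, an X-linked gene with a role in neural progenitors and the pituitary, had reads only in the 2 embryonic libraries. It stood at 4.55 in E12.5 with 974 reads and at 2.85 in the KO-labelled library with 229 reads. It is listed at 0 in the 4 postnatal libraries, where 3 reads would have given 0.104 to 0.120 FPKM. Some genes that every cell uses are also listed at 0, so this is not read as absence. Among the members in E12.5 it ranked after Sox4 alone, at 22.4 FPKM against 17.8 FPKM for Sox18. Sox12, which is not a member, held 33.2 FPKM there. For Sox3 the difference between adult and E12.5 was -4.55 (SE 0.09, adjusted p = 0.00398, limma), with no fold because adult is listed at 0. Sox1, Sox14 and Sox21, other factors of neural tissue, had at most 1 read in any library, and Sox2 had 1 read in E12.5 and 13 in the KO-labelled library. Of 13 markers of neural progenitors and neurons, 2 reached 1 FPKM in each embryonic library. The list summed to 32.9 FPKM in E12.5, 47.2 FPKM in the KO-labelled library and 22.8 to 40.1 FPKM in the postnatal libraries. Neurog2 and Hes5 were listed at 0 in both embryonic libraries, and Pax6 stood at 0.08 and 0.05. Nes and Ncam1 carried most of the sum in both embryonic libraries, and their part in the Sox3 values was not tested. From E12.5 to the KO-labelled library, Nes went from 3.91 to 4.65 and Ncam1 from 4.09 to 4.49, the 2 markers with 5 FPKM. Elavl3 went from 0.94 to 0.17 and Stmn2 from 0.68 to 0.34, both under 1 FPKM in each library.

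The SoxF genes of endothelium did not move together. Sox18, which acts in arterial and lymphatic endothelium, stood at 4.23 in E12.5, 3.59 in the KO-labelled library, 2.67 in adult 1, 2.72 in adult 2, 2.15 in banding and 2.13 in sham. Both embryonic libraries were above all postnatal ones, and adult was lower than E12.5 by -1.53 (SE 0.10, adjusted p = 0.00643, limma). Under 3 other scalings this difference was -0.98 to -1.20 and stayed called.

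Sox17, a factor of arterial endothelium and endoderm, went the other way. It stood at 0.92 in E12.5, 0.65 in the KO-labelled library, 2.02 in adult 1, 2.32 in adult 2, 1.95 in banding and 2.09 in sham. As deposited, the 4 postnatal libraries lay at 1.95 to 2.32, above both embryonic ones. Adult 1 held 0.769 of the FPKM of adult 2 (95% interval 0.601 to 0.983). Under 3 other scalings adult 1 stood at 1.93 to 2.05 and sham at 2.51 to 2.59. The adult mean of 2.17 ± 0.21 (SD, n = 2) was higher than E12.5 by 1.25 (SE 0.19, adjusted p = 0.0213, limma). This call was lost with no filter on low genes, where the adjusted p was 0.0606. Sham held 3.63 times the Sox17 FPKM of E12.5 (95% interval 2.64 to 5.04) as deposited, and 7.38 to 8.36 times under 3 other scalings.

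Sox7, a factor of early endothelium and its blood-forming precursors, stood at 3.60 in adult 1, 3.65 in adult 2, 3.27 in E12.5, 4.03 in the KO-labelled library, 2.26 in banding and 2.36 in sham. Embryonic and postnatal libraries overlapped. The adult mean was 0.36 above E12.5 (SE 0.09, adjusted p = 0.0587, limma), and under the 3 other scalings the difference was 0.65 to 0.87 with an adjusted p of 0.0104 to 0.0179. Sox7 was the most abundant member in both adult libraries, at 11.2 and 11.5 FPKM, with the counting interval apart from that of Sox4 in each.

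Shares within a library do not depend on its scaling. Of the summed FPKM of Sox7, Sox17 and Sox18, Sox18 held 65.1% in E12.5, 40.9% in the KO-labelled library, 27.5% in adult 1, 26.5% in adult 2, 34.1% in banding and 31.4% in sham. Sox7 held 56.9% in adult 1, 54.7% in adult 2, 31.6% in E12.5, 56.9% in the KO-labelled library, 37.5% in banding and 38.4% in sham. Sox17 held 3.28% in E12.5, 2.13% in the KO-labelled library, 15.6% in adult 1, 18.8% in adult 2, 28.5% in banding and 30.2% in sham. Sox18 thus held the largest share in E12.5, and Sox7 in the other 5 libraries. In banding and sham the counting intervals of Sox7 and Sox18 overlapped, so their order there is not settled. Of 15 endothelial markers, 7 were called higher in adult than in E12.5 and 5 lower, with a list median of 0.38. Flt1, a VEGF receptor, was higher by 2.88 (SE 0.16, adjusted p = 0.00552, limma), and Emcn, an endothelial sialomucin, fell by 1.34 (SE 0.08, adjusted p = 0.00596, limma). The endothelial markers summed to 404 FPKM in E12.5, 557 FPKM in the KO-labelled library and 402 to 461 FPKM in the postnatal libraries. Per 1000 FPKM of endothelial markers, the 3 SoxF genes held 67.5 FPKM in E12.5, 48.4 in the KO-labelled library, 44.2 in adult 1, 45.8 in adult 2, 25.1 in banding and 25.2 in sham. Egfl7, the highest of these markers in banding and sham, held 90.9 FPKM and 103 FPKM of the sum there. It stood at 6.52 in banding and 6.70 in sham, against 4.44 and 4.47 in adult and 5.21 in E12.5. The SoxF values per 1000 FPKM were not taken without Egfl7. Of 6 lymphatic markers, 1 was called higher in adult (Lyve1, by 0.96, adjusted p = 0.0421) and 2 lower (Pdpn, by -3.31, adjusted p = 0.00398, and Vegfc, by -0.92, adjusted p = 0.0142).

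**Figure D3:**
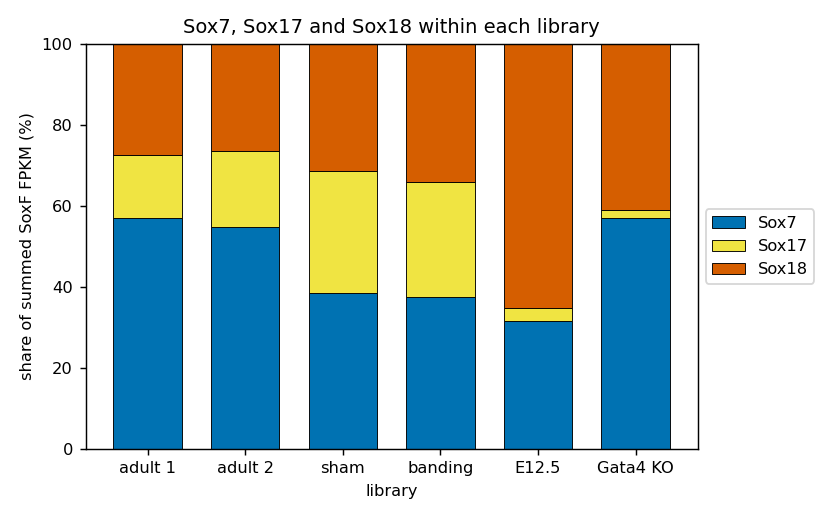
Share of the summed FPKM of Sox7, Sox17 and Sox18 held by each gene, in percent, in each library. Each bar is 1 library with no error between replicates. Sox18 holds 65.1% in E12.5 and 26.5% to 40.9% elsewhere, and Sox17 holds 2.13% to 3.28% in the E12.5 libraries and 15.6% to 30.2% in the others.

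The SoxE genes were low. Sox9, which acts in valve mesenchyme and cartilage, stood at 0.47 in adult 1, 0.52 in adult 2, 1.61 in E12.5, 2.36 in the KO-labelled library, 2.06 in banding and 1.17 in sham. Banding lay between the 2 embryonic libraries as deposited. Under 3 other scalings it lay above both, at 2.43 to 2.53 against 1.91 to 2.06 in the KO-labelled library. Adult was lower than E12.5 by -1.12 (SE 0.07, adjusted p = 0.00567, limma), with 20 and 22 reads behind the adult levels. Of 13 valve mesenchyme markers, 10 were tested, 2 were called higher in adult and 5 lower, with a list median of -0.15. Vcan, a proteoglycan of the cushions, fell by 4.01 (SE 0.13, adjusted p = 0.00398, limma), whereas Prrx1, a mesenchymal homeobox factor, was higher by 3.56 (SE 0.11, adjusted p = 0.00398). Of 12 cartilage matrix genes, which include targets of Sox9 with Sox5 and Sox6, 5 were tested and 4 fell, where 48.4% of all genes fell. Among them were Col2a1 (by -3.60) and Col9a2 (by -2.83), both with an adjusted p of 0.00398. All 12 were under 1 FPKM in both adult libraries. Those tested thus passed the filter through E12.5 alone, and a call could only be a fall.

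Sox10, the neural crest and glial factor, had 2 reads in E12.5, 6 in the KO-labelled library, 23 in adult 1, 10 in adult 2, 11 in banding and 15 in sham. It stayed under 1 FPKM everywhere and so under the filter of both tests, and differed 2.25-fold between the adult libraries (95% interval 1.03 to 5.30). Of 18 neural crest, glial and autonomic markers, 5 were tested between adult and E12.5, of which 2 fell and 1 rose, with a list median of 0.35. Ednrb, the endothelin B receptor, was lower in adult by -3.32 (SE 0.17, adjusted p = 0.00499, limma) and Mbp, a myelin protein of glia, by -1.39 (SE 0.12, adjusted p = 0.00835). Dbh, an enzyme of noradrenaline synthesis, was higher by 0.72 (SE 0.17, adjusted p = 0.0477). Ednrb alone held 62.6 FPKM in E12.5 and 51.7 FPKM in the KO-labelled library. The other 17 genes summed to 7.39 FPKM in E12.5, 9.14 FPKM in the KO-labelled library and 8.63 to 9.55 FPKM in the postnatal libraries, so that without Ednrb their summed level was similar in all 6.

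The SoxD members Sox5 and Sox6 stayed under 2 on this scale. Sox6, known from slow fibre and embryonic globin repression, stood at 1.87 in adult 1, 1.88 in adult 2, 1.73 in E12.5, 1.87 in the KO-labelled library, 0.95 in banding and 1.17 in sham. Adult, E12.5 and the KO-labelled library lay within 0.15 units of each other. The difference of 0.15 between adult and E12.5 was not called (SE 0.11, adjusted p = 0.313, limma), but was 0.48 (adjusted p = 0.0435) with median-of-ratios scaling and 0.53 (adjusted p = 0.036) with upper-quartile scaling. Of 9 slow fibre and embryonic globin genes, 7 fell from E12.5 to adult, with a list median of -4.84. The embryonic globin Hbb-y and the slow troponin I gene Tnni1, at 13.71 and 10.66 in E12.5, were listed at 0 in both adult libraries. Both thus passed the filter through E12.5 alone. Sox5 stood at 0.36 in adult 1, 0.39 in adult 2, 0.67 in E12.5, 1.00 in the KO-labelled library, 0.75 in banding and 0.46 in sham, and was under the filter of both tests. RefSeq lists long noncoding genes that overlap Sox4, Sox5 and Sox6. The sources used here do not say that counting used strand, so their reads cannot be told apart.

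Of 12 Wnt signalling genes, a pathway that several Sox factors modulate, 7 were tested between adult and E12.5, 6 fell and none rose, where 48.4% of all genes fell. As deposited, the list median of -0.65 lies near the -0.51 of all genes. Another scaling takes the latter to about 0, and the list median was not taken under it. Tcf7l2, a nuclear partner of beta-catenin, fell by 1.8 (SE 0.14, adjusted p = 0.00781, limma), and the cyclin gene Ccnd1 by 1.12 (SE 0.15, adjusted p = 0.0173).

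The KO-labelled library was set against E12.5 heart by size, as 1 library against 1, with no replicate check. A gene was counted when it differed by at least 1 on the log2(FPKM + 1) scale with at least 5 FPKM in the higher library, which 1.36% of 8218 genes did upward and 0.742% downward (2.11% in all). These were 112 and 61 genes, and 121 and 40 without the 50 highest genes. Of the 5 members with 5 FPKM, Sox3 was counted lower and the other 4 were not counted. Its FPKM was 0.278 of that in E12.5 (95% interval 0.240 to 0.321, counting error only, as for all intervals here).

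Sox18 was at a ratio of 0.621 (0.540 to 0.712) and Sox7 at 1.78 (1.60 to 1.97), so these SoxF genes lay on opposite sides of 1. Sox17, with 32 reads against 59, was at 0.641 (0.404 to 1.00). Beside these, 12 of 13 endothelial markers with 5 FPKM had higher values in the KO-labelled library and none was counted. Eng, a TGF-beta co-receptor, differed by 0.74.

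Sox9 was at a ratio of 2.01 (1.66 to 2.43) and Sox5 at 1.68 (1.28 to 2.22), both under 5 FPKM in each library. The valve mesenchyme markers summed to 97.9 FPKM in E12.5 and 205 FPKM in the KO-labelled library, and without Vcan, the highest of them, to 57.3 and 108 FPKM. Of 5 with 5 FPKM, 2 were counted higher, Postn, a matricellular protein, by 1.51 and Vcan by 1.23. The part of the valve markers in the Sox9 value was not tested. Sox4 was at a ratio of 0.906 (0.870 to 0.943), Sox11 at 1.13 (1.05 to 1.22) and Sox6 at 1.15 (0.995 to 1.32), all smaller departures than that of Sox3. The embryonic globins Hbb-bh1, Hbb-y and Hba-x were higher by 1.54 to 1.76 in the KO-labelled library. The part of red cells in the Sox differences was not tested.

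Banding was compared with sham in the same way, and 2.51% of 5108 genes were counted higher and 0.998% lower (3.5% in all). As counts these were 128 and 51, and 136 and 84, 157 and 81, and 114 and 118 under the 3 other scalings. Sox4 was the only member with 5 FPKM and was not counted, at a ratio of 1.21 (1.08 to 1.36). Sox9 was at 2.52 (1.88 to 3.41) with 184 reads against 63, and Sox5 at 1.83 (1.19 to 2.86) with 70 against 33, both under 5 FPKM. Sox6 was at 0.738 (0.565 to 0.963). The valve mesenchyme list summed to 62.4 FPKM in banding and 22.2 FPKM in sham, and Postn, which alone held 34.0 FPKM in banding, differed by 3.11. The part of the valve markers in the Sox9 value was not tested. For Sox7 the ratio was 0.915 (0.735 to 1.14), for Sox17 0.883 (0.684 to 1.14) and for Sox18 1.02 (0.725 to 1.44), so the SoxF intervals all held 1. None of 15 endothelial markers was counted. Sox3 was listed at 0 in both, and Sox11 had 4 reads in banding and 2 in sham.

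**Figure D4:**
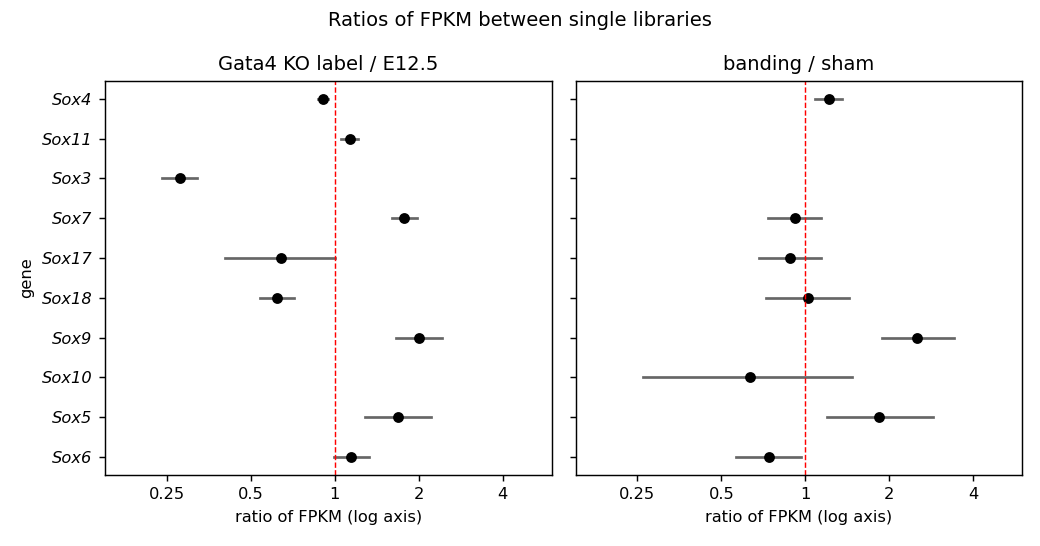
Ratio of FPKM in the KO-labelled library to E12.5 and in banding to sham, on a log axis, for members with at least 4 reads in both libraries. Points are ratios and lines are exact 95% intervals of counting error, and the dashed line marks a ratio of 1. Sox3 lies at 0.278 on the left, and Sox9 lies at 2.01 on the left and 2.52 on the right.

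Unoperated adult heart was set beside sham by limma, where 44.8% of 11582 genes were called higher in adult and 13.7% lower. Of 6 members tested, Sox7, Sox18 and Sox6 were called higher in adult and Sox4 and Sox9 lower. Sox7 was higher by 1.27 (SE 0.12, adjusted p = 0.00511), and under 3 other scalings by 0.62 to 0.84, still called. Sox4 was lower by -0.82 (SE 0.13, adjusted p = 0.0132), and by -1.30 to -1.53 under those scalings, but lost the call with no filter on low genes (adjusted p = 0.0525). Sox9 was lower by -0.68 (SE 0.12, adjusted p = 0.0183), and by -0.996 to -1.11 (called) under those scalings. It passed the filter of 1 FPKM through sham alone, so a call could take no other direction. The differences of Sox18 (0.57, adjusted p = 0.0344) and Sox6 (0.70, adjusted p = 0.0234) were lost under each of the 3, and Sox18 turned to -0.05 without the 50 highest genes. Sox17 was not called (0.08, adjusted p = 0.736), and lay at -0.33 to -0.53 under those scalings, also not called. The median of all genes was 0.44, and 0.01, -0.09 and -0.21 under those scalings, so that the split of all calls moved from 5191 higher and 1581 lower to 3283 and 3153, 2971 and 3621, and 2557 and 4147.

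Sham was also set beside E12.5, by size. Downward, 58.2% of 8544 genes were counted, and upward 10.2% (68.4% in all). Of 5 members with 5 FPKM, 4 were counted lower, with ratios of 0.172 (0.157 to 0.188) for Sox4 and 0.190 (0.145 to 0.245) for Sox18, beside Sox11 and Sox3 above. Under 3 other scalings the ratios were 0.350 to 0.397 for Sox4 and 0.386 to 0.437 for Sox18. Sox7 differed by -0.91 as deposited and by -0.04, 0.12 and 0.03 under 3 other scalings, so its direction flips with scaling. Sox9, Sox5 and Sox6, all under 5 FPKM here, had ratios of 0.613, 0.625 and 0.543 as deposited. Under those scalings their ratios turned to 1.25 to 1.41, 1.27 to 1.44 and 1.10 to 1.25. The median of all genes was -1.28, and -0.24, -0.01 and -0.13 under those scalings, and the split of all counts moved from 871 higher and 4976 lower to 1985 and 2596, 2282 and 2224, and 2161 and 2490. The E12.5 library is shared by the comparisons with adult, sham and the KO-labelled library, and the adult pair by the limma tests, so these are not separate evidence. Between the 2 adult libraries, 0.48% of 6460 genes passed the same rule, and none of the 3 members with 5 FPKM did.

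Among the members, the order of FPKM in adult 1 was Sox7, Sox4, Sox18, Sox17 and Sox6. Of these, Sox17 and Sox6 had overlapping counting intervals. The same order held in adult 2, where Sox18 and Sox17 overlapped instead. In E12.5 the order was Sox4, Sox3, Sox18, Sox11 and Sox7, with the last pair overlapping, and in the KO-labelled library it was Sox4, Sox7, Sox18, Sox11 and Sox3, with Sox18 and Sox11 overlapping. Banding and sham began with Sox4 and Sox7. In banding Sox7, Sox18, Sox9 and Sox17 followed each other with overlapping intervals, and in sham Sox7, Sox18 and Sox17 did.

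Of the 9 other Sox genes listed, Sox12 and Sox13 reached 1 FPKM. Sox13, a SoxD gene, stood at 1.94 and 1.92 in adult, 2.29 in E12.5, 2.15 in the KO-labelled library, 2.47 in banding and 2.59 in sham, and was not called between adult and E12.5 (adjusted p = 0.083, limma). Likeness of pattern was taken as the Euclidean distance between levels over the 6 libraries, each gene centred on its mean, among 8634 genes with at least 5 FPKM in any library. The nearest to Sox4 were Tmem203 (0.21), Ampd2 (0.23) and Cdc42ep2 (0.31), and to Sox11 Zc3hav1l (0.20), Hunk (0.21) and Mia3 (0.21). Mia3 was listed at 0 in all 4 postnatal libraries, which is not read as absence. For Sox3 the nearest lay farther off, at 0.50 for Npb, 0.52 for Igfbpl1 and 0.62 for Ppp1r1b. For Sox7 they were Spred1 (0.21), G0s2 (0.24) and Spry4 (0.25), and for Sox18 Btbd10 (0.22), Dus4l (0.24) and Rps15a (0.24). These are descriptions over libraries that share their depth and scaling.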

How the data were processed

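The 10 members, the gene lists and the tests were chosen with earlier results of these data known. The values deposited by the authors are log2(FPKM + 1) per gene symbol, and the scale was read from the values. Per the submitters' processing notes, the series used CASAVA 1.8.2, TopHat 1.4, HTSeq 0.5.3, BWA 0.5.9, MACS 1.4 and build mm9, and no source used here names which of them made these files. From whole-number ratios between libraries, whole reads came out for 100.00% of 98043 values above 0, within 0.001 of a read. These reads served for depth and for exact conditional binomial 95% intervals, which cover counting error only because the reads carry no molecular identifiers. Some genes that every cell uses are listed at 0, so a member at 0 is only called listed at 0.

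Adult against E12.5 and adult against sham were tested by limma 3.58.1 (R 4.3.3), using a mean-variance trend with 1 residual degree of freedom, on genes with at least 1 FPKM in 1 of the 3 libraries. P-values reflect the spread of the adult pair alone, and that spread may be technical. Each gene's spread was moderated toward the trend over all genes, with 1.53 prior degrees of freedom against E12.5 and 2.55 against sham. A standard error is thus not the spread of that gene alone: Sox3 had an adult SD of 0 and an SE of 0.09. Pairs of single libraries were compared by the rule of size. The alternatives were 3 scalings (median-of-ratios, upper quartile, and without the 50 highest genes), a pseudocount of 0.1 FPKM, other filters, a 1.5-fold limit, a fit over all 6 libraries and leaving out each adult library. From each list described, up to 4 genes that passed with the largest difference were named, or up to 2 where none passed; Sox1, Sox2, Sox14, Sox21, Neurog2, Hes5, Pax6 and, in the KO-labelled library, Elavl3 and Stmn2 were named after their values were seen. The 39 chromatin samples were not analysed here.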

Additional observations from a re-analysis of the deposited data

How the results depend on the processing

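Between adult and E12.5, 1 member was called higher as deposited, 3 with median-of-ratios or upper-quartile scaling (Sox7 and Sox6 were added), 2 without the 50 highest genes (Sox7 was added), and 0 with no filter or a filter at 5 FPKM, where Sox17 was lost or not tested. The 5 lower calls were within 1.5 times of that count under each alternative run. Between adult and sham, 3 members were called higher as deposited and 1 under each of the 3 scalings and with no filter, and 2 were called lower as deposited and 1 with no filter (Sox4 was lost) or a filter at 5 FPKM (Sox9 was not tested). Sox18 turned from 0.57 to -0.050 without the 50 highest genes. In the KO-labelled library, at 1.5-fold, 1 member was counted higher (0 at 2-fold) and 2 lower (1 at 2-fold). Between sham and E12.5, 1 member was counted higher without the 50 highest genes or at 1 FPKM (0 as reported). Among members that reach 1 FPKM, those with both E12.5 libraries below all postnatal ones went from 1 to 2 without banding and sham, where Sox6 was added (31.3% of all genes lay below then), and those above from 4 to 6, where Sox9 and Sox5 were added (59.1% of all genes), an alternative chosen after seeing the data. The cause of these moves was not tested, apart from the fewer or more genes that a filter admits. Genes counted by the rule of size at 1.5-fold numbered 378 higher and 297 lower in the KO-labelled library (112 and 61 as reported) and 383 and 216 in banding (128 and 51). No paired analysis was possible because the other groups have 1 library each and share at most 1 replicate number with adult. Without either adult library no test remained, since no residual degree of freedom was left. With a pseudocount of 0.1 FPKM the adult differences from E12.5 became -6.27 for Sox11, -7.81 for Sox3 and -2.09 for Sox9, all still called. Depth limits Sox10, Sox9, Sox5 and Sox17, which rest on as few as 2, 20, 26 and 32 reads.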
